A study of Mus musculus with 7 samples.

Results

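Gelsolin (Gsn) and 9 further genes of actin severing, capping, monomer binding and actin itself were followed across 7 whole-liver arrays: Vil1, Capg, Scin, Cfl1, Cfl2, Pfn1, Pfn2, Actb and Actg1. The list was drawn up because the Gsn signal was high at 4 weeks after Cre, so the 4 week values of its members are given as a description and are not tested. Of the 10 genes, 9 had a probe set assigned to them alone, 1 each, among 16819 genes in all. Actg1, the second cytoplasmic actin, was not analysed here.

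The livers came from male Dicer1 fl/fl mice, in which loxP sites flank both copies of the gene for the microRNA-processing ribonuclease, and the strain background mixed C57BL/6 with 129S4. Control livers (3 arrays, 0 weeks) carried the floxed alleles alone, and the other livers were taken 2 weeks (2 arrays) or 4 weeks (2 arrays) after injection of AAV8-Ttr-Cre at 8 to 10 weeks of age. AAV8 is an adeno-associated virus that reaches the liver. Its Cre recombinase is driven by the transthyretin (Ttr) promoter, which is active in hepatocytes. Other liver cells are thus meant to keep Dicer1, which was not measured by cell type here. All mice were fasted for 4 hours before the liver was taken. Arrays of a group are labelled as biological replicates. A group given virus without Cre, or left untreated for 2 or 4 weeks, was not among the arrays, so Dicer1 loss, the virus, Cre and the elapsed weeks cannot be told apart. Each value is a log2 signal of 1 probe set, a scale on which a difference of 1 is a 2-fold difference, and no detection call comes with them.

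Actin filaments grow by addition of actin monomers at one end and shrink at the other, and a set of small proteins sets the pace. Gelsolin family proteins cut filaments and cap the fast-growing end in response to calcium, cofilins cut ageing filaments, and profilins hand monomers to the growing end. In hepatocytes a dense actin layer lines the bile canaliculus and fills its microvilli, and gelsolin is also made as a secreted form that clears actin released into plasma from damaged cells.

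Before the members, 4 facts of the whole series bear on them. Dicer1 read 8.58 to 8.73 on the control arrays. It read 8.03 and 7.79 on replicates 1 and 2 at 2 weeks, and 7.97 and 8.05 at 4 weeks. On the first principal component, which held 62.0% of the variance over all genes, the controls lay between -23.8 and -22.4, replicate 1 at 2 weeks at 6.56, and the other arrays after Cre between 18.4 and 24.3. Replicate 1 at 2 weeks thus stood apart from the other arrays after Cre on the side of the controls. The 2 week results of Gsn and Pfn1, and the number of listed actin genes that passed, are given with and without it. For most other genes the 2 week values are given only with it. Of the 8 hepatocyte markers 7 were measured, the dimmest being Hnf4a with a mean of 11.89, so the defining transcripts of liver were present on the arrays. In 10.3% to 12.7% of genes, arrays of the same group carried exactly the same deposited value, so a replicate spread of 0 in these data does not show that there was no error.

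Gelsolin had by far the widest range of the members. Its log2 signal in the 3 control livers was 7.98, 8.16 and 8.16. After 2 weeks it was 8.23 in replicate 1 and 10.40 in replicate 2, and after 4 weeks 11.22 and 10.73. The arrays of each later group lay above all controls, but at 2 weeks 1 liver stood just above the highest control and the other close to the 4 week livers. The group means were 8.10 ± 0.10 (SD, n = 3), 9.31 ± 1.53 (SD, n = 2) and 10.97 ± 0.34 (SD, n = 2).

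At 2 weeks the mean difference of Gsn from control was 1.22 (SE 0.61, adjusted p = 0.306, limma), with a 95% interval from -0.29 to 2.72, so it did not pass the threshold of 0.05. The result rested on which 2 week array was used. Without replicate 1 the difference was 2.30 (adjusted p = 0.0141, limma), and without replicate 2 it was 0.13 (adjusted p = 0.86, limma). With either array left out, the remaining one is assumed to vary like the other groups.

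At 4 weeks Gsn was 7.33-fold above control (log2 difference 2.87, SE 0.61), the contrast for which it was chosen. The SE holds the gap between both 2 week arrays, since all groups share one estimate of the spread. With only the control and 4 week arrays in the fit, the difference was 2.87 with an SE of 0.17. Leaving out either 4 week array gave 2.63 or 3.12. From 2 to 4 weeks the difference was 1.66 (SE 0.66), and it was 0.57 without replicate 1 and 2.75 without replicate 2 at 2 weeks.

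The gap between the 2 week arrays was 2.17 log2 units for Gsn, and 16 of 16819 genes, Gsn included, had one at least as wide. Set on a scale from the control mean (0%) to the 4 week mean (100%), Gsn stood at 4.52% on replicate 1 and at 80.0% on replicate 2 at 2 weeks. For comparison, genes that were at least 2-fold higher at 4 weeks with an adjusted p under 0.05 (limma) were taken. The fit held control and 4 week arrays only, so that the 2 week arrays had no part in choosing them. This set was chosen after seeing the data. The 135 such genes other than Gsn had medians of 73.1% on replicate 1 and 106% on replicate 2. Of them, 2 stood at or below Gsn on replicate 1 and 17 on replicate 2, and 6 had a gap at least as wide as that of Gsn. This is a description of 2 livers, without a test.

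Promoter sequences are shown here for Gsn, because its 3 annotated starts could each feed the probe set, and for Pfn1, the member that passed the test at 2 weeks. They are the 250 bases before each start, 5′ to 3′ on the gene's strand, from a table of RefSeq starts (GRCm38.p6) in which 9 of the 10 members were matched. Capitals mark matches to a GC box.
Gsn start 1, chr2:35256109-35256358, plus strand: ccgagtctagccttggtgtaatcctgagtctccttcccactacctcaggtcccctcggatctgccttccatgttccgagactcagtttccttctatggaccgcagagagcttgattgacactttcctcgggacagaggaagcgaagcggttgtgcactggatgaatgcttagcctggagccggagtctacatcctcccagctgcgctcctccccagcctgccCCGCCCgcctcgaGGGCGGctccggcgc
Gsn start 2, chr2:35266494-35266743, plus strand: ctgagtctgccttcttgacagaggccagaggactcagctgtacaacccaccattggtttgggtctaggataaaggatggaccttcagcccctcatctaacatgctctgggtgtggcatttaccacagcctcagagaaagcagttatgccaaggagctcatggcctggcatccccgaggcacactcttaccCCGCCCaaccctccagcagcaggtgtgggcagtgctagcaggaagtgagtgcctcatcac
Gsn start 3, chr2:35282130-35282379, plus strand: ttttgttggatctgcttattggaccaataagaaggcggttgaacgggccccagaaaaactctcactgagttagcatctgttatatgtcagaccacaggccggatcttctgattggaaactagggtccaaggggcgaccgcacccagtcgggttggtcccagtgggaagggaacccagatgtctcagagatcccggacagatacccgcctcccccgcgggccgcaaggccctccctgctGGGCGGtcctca
Pfn1 start, chr11:70654651-70654900, minus strand: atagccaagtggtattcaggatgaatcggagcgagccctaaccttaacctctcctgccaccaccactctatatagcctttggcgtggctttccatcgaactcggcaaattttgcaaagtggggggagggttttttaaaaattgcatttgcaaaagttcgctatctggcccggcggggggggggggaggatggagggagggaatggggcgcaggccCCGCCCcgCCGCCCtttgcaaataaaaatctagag
Which of the 3 Gsn starts was used in these livers is not resolved by 1 probe set. Both strands of the same 250 bases were searched for the CArG box (the site of serum response factor, a known regulator of actin genes), AP-1 (TGANTCA), the TATA box (TATAAA) and the GC box (GGGCGG), which 1.47%, 6.75%, 12.4% and 32.7% of 32851 annotated promoters hold. Each Gsn start held a GC box, start 1 having 2, and so did Pfn1, also with 2. None of these 4 windows held letters of the other 3 motifs. CArG matches lay in the windows of Vil1 (CCTTATATGG, 73 to 64 bases before the start) and Actg1 (CCATATATGG, 90 to 81 bases before), on the gene's strand and apart from the GC boxes there. Actb had no entry in the table of starts, so its promoter was not searched. A match describes letters and is no shown site.

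**Figure D1:**
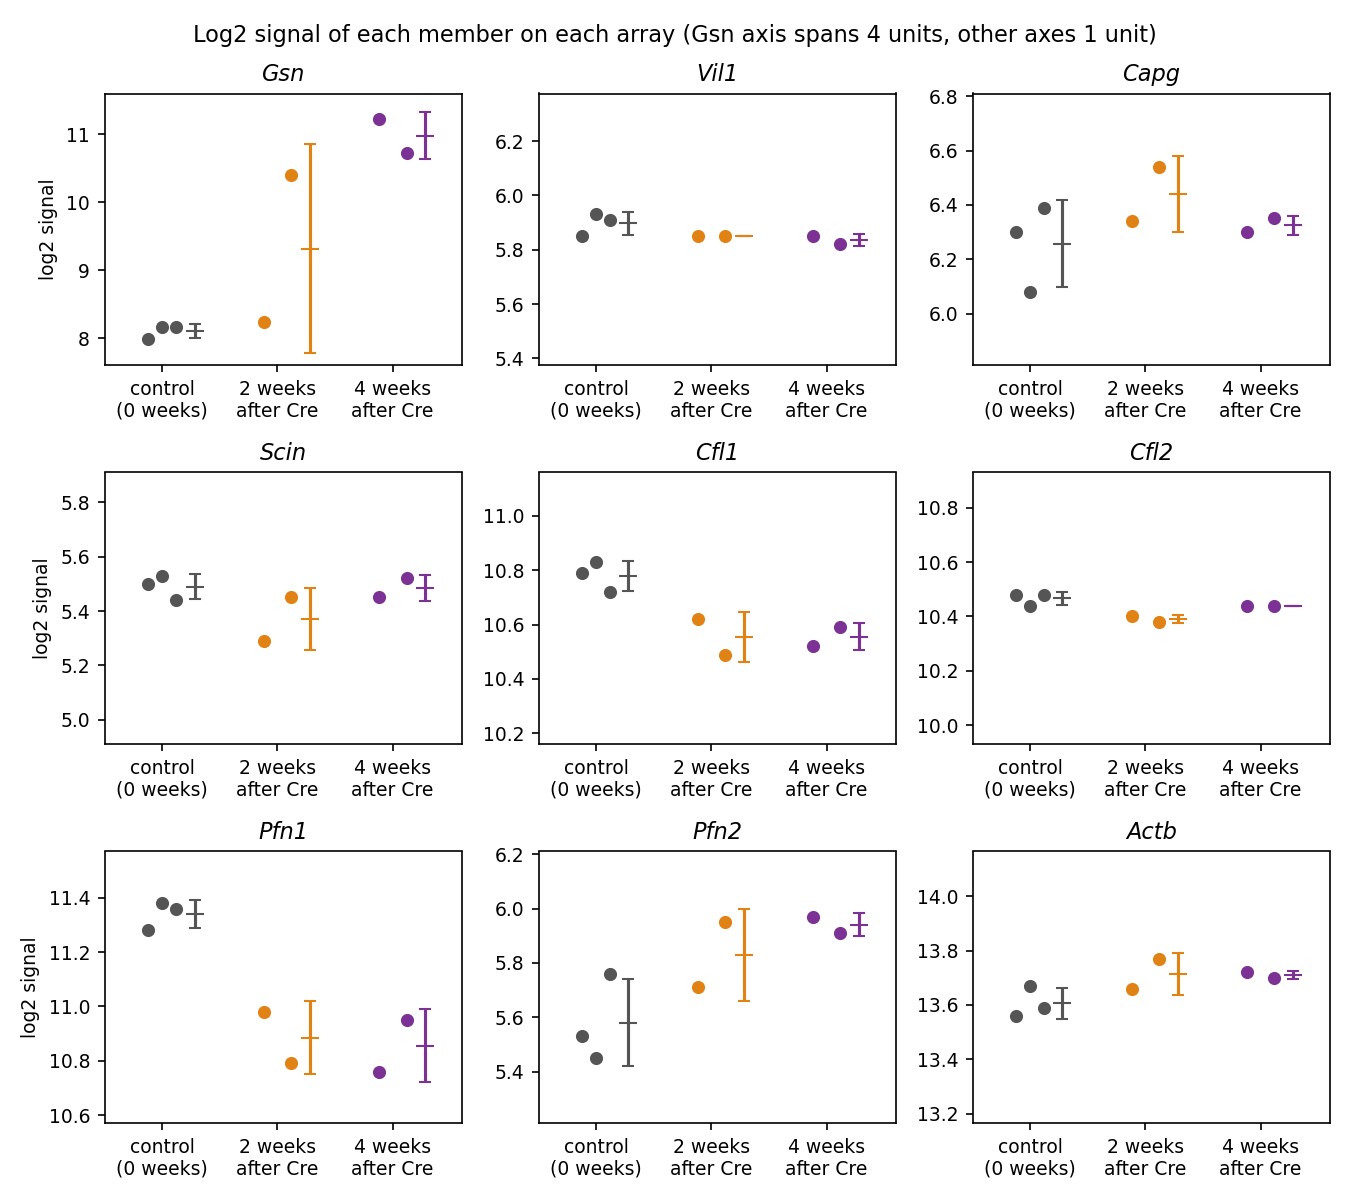
Log2 signal (vertical axis) of the 9 measured members on each array, by group; points are arrays and the bar beside them is the mean ± SD (3, 2 and 2 arrays). The Gsn axis spans 4 log2 units and all others 1 unit: Gsn ran from 7.98 to 11.22 with its 2 week arrays at 8.23 and 10.40, while Pfn1 and Cfl1 lay lower on all 4 arrays after Cre.

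None of the 3 members related to gelsolin (Vil1, Scin and Capg) passed the test at 2 weeks (limma, 0 of 3 with an unadjusted p under 0.05). Further genes of the family, Avil, Svil, Flii and Vill, are among the actin genes listed by role below. At 2 weeks they differed from control by -0.04, 0.25, 0.25 and -0.07, and none passed. At 4 weeks Flii passed as higher, and Avil, Svil and Vill did not pass. Villin 1 (Vil1), which bundles and cuts filaments in microvilli, read 5.85, 5.93 and 5.91 in controls, 5.85 and 5.85 at 2 weeks, then 5.85 and 5.82 at 4 weeks. The groups overlapped and the whole range over 7 arrays was 0.10. The 2 week difference was -0.05 (95% interval -0.16 to 0.06; adjusted p = 0.543, limma). At 4 weeks it was -0.06 (SE 0.04).

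Scinderin (Scin), a calcium-dependent severing protein also called adseverin, read 5.50, 5.53 and 5.44 in controls. It read 5.29 and 5.45 at 2 weeks, then 5.45 and 5.52 at 4 weeks. The arrays of all groups overlapped. The difference was -0.12 at 2 weeks (95% interval -0.28 to 0.04; adjusted p = 0.333, limma) and 0.00 at 4 weeks (SE 0.06). Vil1 and Scin, like Pfn2 below, had mean signals under the 25th percentile of all genes (6.17), where background makes up more of an array signal and differences are understated.

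CapG (Capg), which caps filaments without cutting them and is abundant in macrophages, read 6.30, 6.08 and 6.39 in controls, 6.34 and 6.54 at 2 weeks, then 6.30 and 6.35 at 4 weeks. Its control arrays alone spanned most of the range, and the groups overlapped. The 2 week difference of 0.18 (95% interval -0.09 to 0.45; adjusted p = 0.391, limma) lay near the SD of the controls, 0.16, and at 4 weeks it was 0.07 (SE 0.11). For these 3 relatives the upper ends of the 2 week intervals were 0.06, 0.04 and 0.45. The interval of Gsn, -0.29 to 2.72, overlaps all 3, and its 2 livers lay 0.13 and 2.30 above the control mean. A difference between Gsn and these 3 relatives was not itself tested.

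Profilin 1 (Pfn1), the main profilin of non-muscle cells, was lower on every array after Cre. It read 11.28, 11.38 and 11.36 in controls, 10.98 and 10.79 at 2 weeks, then 10.76 and 10.95 at 4 weeks, and the highest array after Cre lay 0.30 below the lowest control. Pfn1 fell 1.37-fold at 2 weeks (log2 difference -0.45, SE 0.09, 95% interval -0.67 to -0.24, adjusted p = 0.0448, limma). It was the 1 of 9 measured members that passed at 2 weeks, where 5.93% of all genes passed in either direction, 3.46% as higher and 2.47% as lower, so 1 call among 9 is close to the background. At 4 weeks it was lower by a log2 difference of -0.48 (SE 0.09), and between the times the difference was -0.03 (95% interval -0.26 to 0.20; adjusted p = 0.976, limma).

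The adjusted p of Pfn1 lay close to the threshold and moved with the arrays used. It was 0.102, 0.14 and 0.145 without control replicate 1, 2 or 3, and 0.0379 and 0.14 without replicate 1 or 2 at 2 weeks. It was 0.0696 with only the control and 2 week arrays in the fit, and the same without either 4 week array, which leaves no second 4 week array to add to the spread. The log2 difference stayed between -0.55 and -0.36 when any 1 array was left out.

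Profilin 2 (Pfn2), the profilin best known from neurons, differed the other way. Its arrays read 5.53, 5.45 and 5.76 in controls, 5.71 and 5.95 at 2 weeks, then 5.97 and 5.91 at 4 weeks. At 2 weeks 1 array lay inside the control range, and at 4 weeks both lay above it. The 2 week difference was 0.25 (95% interval -0.04 to 0.53; adjusted p = 0.28, limma), which did not pass, and the 4 week difference was 0.36 (SE 0.12).

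Cofilin 1 (Cfl1), the non-muscle cofilin that severs filaments and frees monomers, lay lower after Cre by a smaller step than Pfn1. It read 10.79, 10.83 and 10.72 in controls, 10.62 and 10.49 at 2 weeks, then 10.52 and 10.59 at 4 weeks, with no overlap between controls and later arrays. The difference was -0.22 at 2 weeks (95% interval -0.38 to -0.07), with an unadjusted p of 0.0117 and an adjusted p of 0.0968 (limma), and so did not pass over all genes. At 4 weeks it was -0.22 (SE 0.06).

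Cofilin 2 (Cfl2), the cofilin typical of muscle, hardly varied. It read 10.48, 10.44 and 10.48 in controls, 10.40 and 10.38 at 2 weeks, then 10.44 and 10.44 at 4 weeks, a range of 0.10 over all 7 arrays. At 2 weeks both arrays lay below the controls by a mean of -0.08 (95% interval -0.17 to 0.01; adjusted p = 0.291, limma), and at 4 weeks the arrays overlapped the controls (-0.02, SE 0.04).

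Beta-actin (Actb), the main actin of liver cells and a common reference transcript, read 13.56, 13.67 and 13.59 in controls, 13.66 and 13.77 at 2 weeks, then 13.72 and 13.70 at 4 weeks. At 2 weeks 1 array lay within the control range and at 4 weeks both lay above it. The difference was 0.11 at 2 weeks (95% interval -0.03 to 0.25; adjusted p = 0.301, limma) and 0.10 at 4 weeks (SE 0.06). These signals lie near the top of the scale, whose highest value was 14.72, where an array can understate differences. Because Actb leaned the other way from Pfn1 and Cfl1, dividing by it widened their differences. On the log2 scale Pfn1 relative to Actb differed from control by -0.57 at 2 weeks and -0.59 at 4 weeks, and Cfl1 relative to Actb by -0.34 and -0.33. Such a ratio within an array shows unequal change and not which transcript changed.

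**Figure D2:**
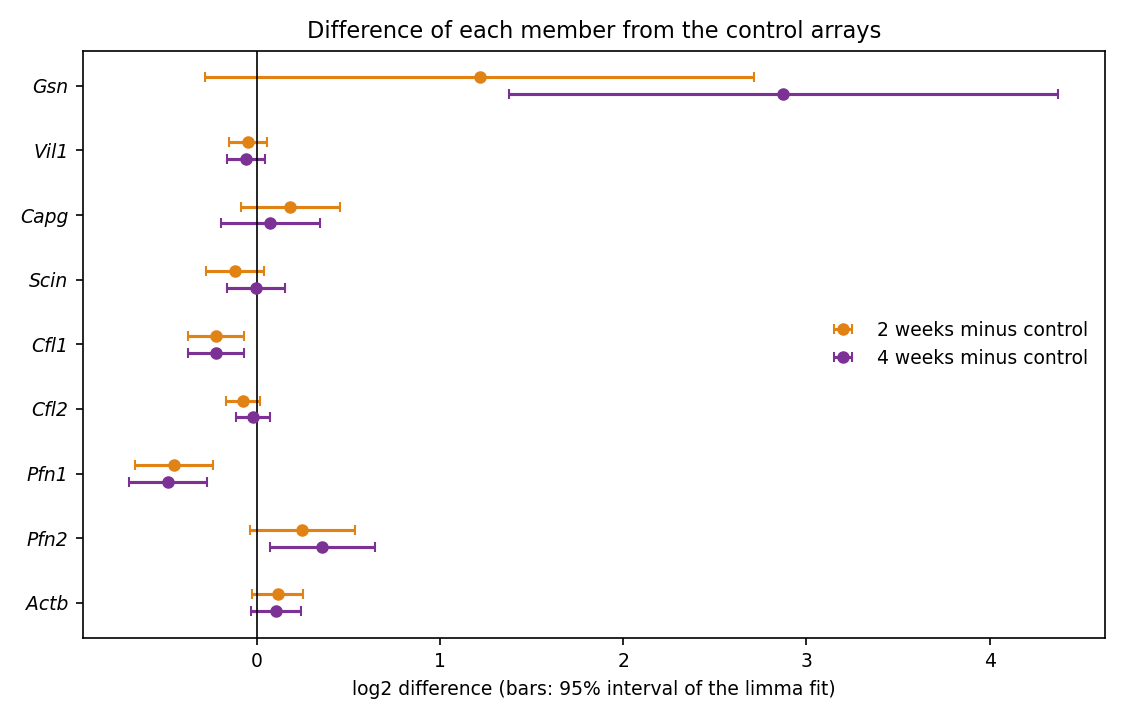
Log2 difference from the 3 control arrays (horizontal axis) of each measured member at 2 weeks and at 4 weeks (2 arrays each); points are the limma estimates and bars their 95% intervals. The 2 week interval of Gsn runs from -0.29 to 2.72, and those of Pfn1 (-0.67 to -0.24) and Cfl1 (-0.38 to -0.07) lie below 0.

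As a list, the 9 measured genes did not move one way. At 2 weeks 1 (Gsn) had both arrays above all controls and 3 (Cfl1, Cfl2 and Pfn1) had both below. Among all genes 17.3% lay wholly above and 17.5% wholly below (34.9% either way). At 4 weeks 3 (Gsn, Pfn2 and Actb) lay above and 2 (Cfl1 and Pfn1) below, against 21.6% and 18.2% of all genes (39.8% either way), and nothing is read from that count because the genes were chosen on it. The median difference of the 9 genes was -0.05 at 2 weeks and 0.00 at 4 weeks, against 0.00 and 0.01 over all genes. Both times are compared with the same 3 control arrays.

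Between the times, Gsn and Cfl2 had both 4 week arrays above both 2 week arrays, and the other 7 overlapped, while 26.6% of all genes did not overlap. None of the 8 members tested between the times passed (limma; Gsn is not counted here, and 0 of the 8 had an unadjusted p under 0.05). That comparison called 1 of the 16819 genes (0.00595%), the clock repressor Nr1d1.

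Genes whose profile over the 7 arrays was most like that of Gsn were sought among the 1014 other genes that spanned at least 1 log2 unit. The 5 with the highest Pearson r were Golph3l (0.987), Tmem41b (0.976), Cyp2a22 (0.969), Alg2 (0.968) and Endod1 (0.967). Golph3l, a Golgi protein gene, read 7.90, 8.05 and 7.99 in controls, 8.05 and 9.11 at 2 weeks, then 9.14 and 9.0 at 4 weeks. Its replicate 1 at 2 weeks read as high as the highest control, and that of Gsn lay just above. Cyp2a22, a cytochrome P450 gene, read 4.67, 5.43 and 4.91 in controls, 5.73 and 9.62 at 2 weeks, then 9.58 and 8.51 at 4 weeks. These arrays fall into groups, so an r over 7 of them mostly records that a gene was low in controls and on 1 of the 2 week arrays and high on 3 arrays; it is a description.

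**Figure D3:**
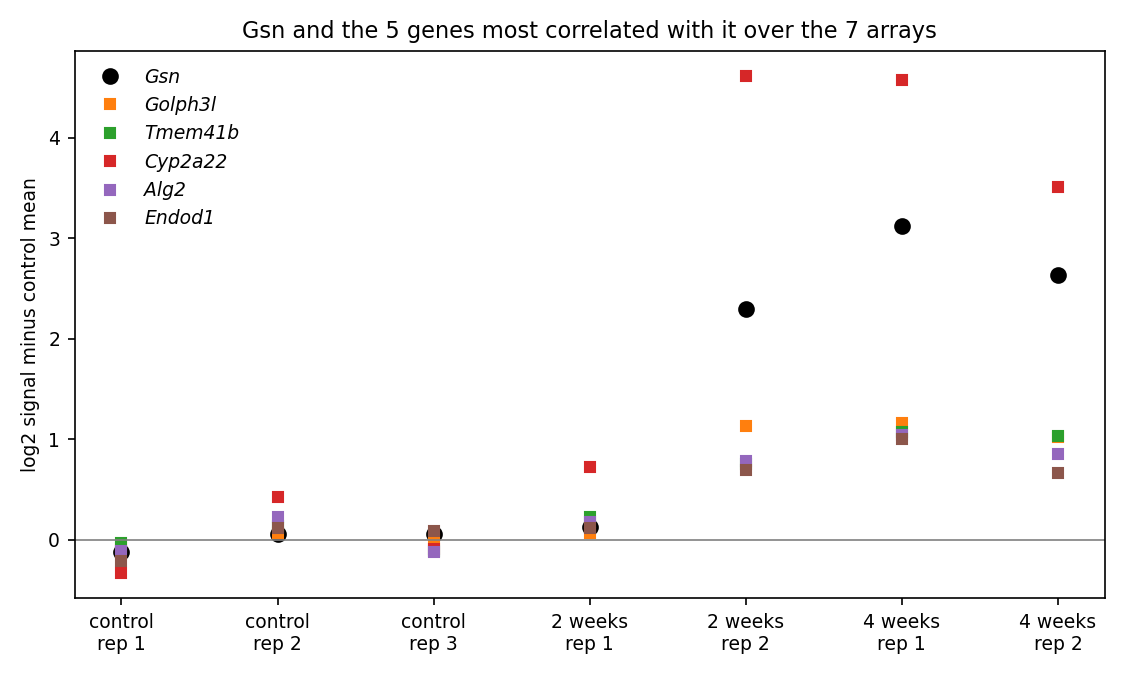
Log2 signal minus the control mean (vertical axis) on each of the 7 arrays for Gsn (black circles) and the 5 genes with the highest Pearson r with it (coloured squares). On replicate 1 at 2 weeks Gsn and Golph3l lie at the level of the controls, and on replicate 2 at 2 weeks and both 4 week arrays all 6 genes lie above them.

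Other genes of the actin cytoskeleton were listed by role, with earlier results of these data known. Of 143 listed genes 126 were measured. At 2 weeks 10 of them passed (7.94%, against 5.93% of all genes), 9 higher and 1 lower, and at 4 weeks 14 (11.1%, against 9.77%), 12 higher and 2 lower. By direction, 7.14% of the listed genes passed as higher at 2 weeks, against 3.46% of all genes, and 0.794% as lower, against 2.47%. At 4 weeks 9.52% passed as higher, against 5.15%, and 1.59% as lower, against 4.62%. The listed genes that passed were thus more often higher than lower, a difference in shares that was not tested. The median difference over the 126 genes was 0.04 at 2 weeks and 0.07 at 4 weeks. None of the 126 passed between 2 and 4 weeks (limma), where 1 of all 16819 genes did. At 2 weeks the number that passed was 21 without replicate 1 and 1 without replicate 2, and 2, 1 and 1 without control replicate 1, 2 or 3. Without either 4 week array it was 2. At 4 weeks it was 5 without any 1 control array, 0 without either 4 week array and 15 without either 2 week array. Each named gene that passed kept its direction when any 1 of the 7 arrays was left out. Eps8l2 still passed in 4 of these 7 fits at 2 weeks and 5 at 4 weeks, and Flii and Cald1 at 4 weeks in 0. At 2 weeks Daam1, Ssh2, Actn4, Cald1, Myh9 and Myo5b each still passed in only 1 of the 7.

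Among the 31 measured genes of severing, capping and turnover, 2 rose and 0 fell at 2 weeks, and 3 rose and 0 fell at 4 weeks, with medians of 0.00 and 0.05. Over all genes 3.46% passed as higher at 2 weeks and 5.15% at 4 weeks, and the medians were -0.002 and 0.008. As lower, 2.47% and 4.62% of all genes passed. The shares of the separate lists were not compared with these by a test. Eps8l2, a relative of the capping and bundling protein Eps8, stood out. It read 8.79, 8.74 and 8.44 in controls, 10.20 and 10.42 at 2 weeks, then 10.17 and 10.56 at 4 weeks, so that, unlike Gsn, it was high in both 2 week livers. It rose 3.14-fold at 2 weeks (log2 1.65, SE 0.16, adjusted p = 0.0121, limma) and 3.26-fold at 4 weeks (log2 1.71, SE 0.16, adjusted p = 0.00867). Ssh2, a phosphatase that activates cofilin, rose 1.20-fold at 2 weeks, and at 4 weeks stood 1.08-fold above control without passing. At 4 weeks the monomer-binding gene Twf1 rose 1.25-fold and Flii, a gelsolin family gene, 1.26-fold. Both stood 1.19-fold above control at 2 weeks without passing. Capza2, a subunit of capping protein, differed by -0.01 and 0.14 and passed at neither time.

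Nucleation and elongation genes held members that went both ways. Of 29 measured, 1 rose and 1 fell at 2 weeks, and 1 rose and 2 fell at 4 weeks. The shares over all genes were 3.46% higher and 2.47% lower at 2 weeks, and 5.15% and 4.62% at 4 weeks. The formin gene Daam1, which builds unbranched filaments, rose 1.53-fold at 2 weeks (SE 0.07, adjusted p = 0.0175, limma) and 1.60-fold at 4 weeks. Arpc4, a subunit of the Arp2/3 complex that starts branches, read 9.68, 9.79 and 9.48 in controls and between 8.91 and 9.01 on all 4 arrays after Cre. It fell 1.58-fold at 2 weeks (SE 0.09 on the log2 scale, adjusted p = 0.0237, limma) and 1.64-fold at 4 weeks. Arpc5l, another subunit gene, fell 1.61-fold at 4 weeks (adjusted p = 0.0217, limma), and its 2 week difference of -0.52 just missed (adjusted p = 0.0509). A further subunit gene, Arpc2, differed by -0.25 at each time and passed at neither time.

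Bundling, cross-linking and membrane-link genes that passed were all higher, 2 of 26 at 2 weeks and 4 of 26 at 4 weeks, with a median of 0.11 at each time. The share of all genes that passed as higher was 3.46% at 2 weeks and 5.15% at 4 weeks, and the medians over all genes were -0.002 and 0.008. Lasp1, an actin-binding adaptor, read 10.01, 10.32 and 10.19 in controls and between 11.02 and 11.17 after Cre, and rose 1.81-fold at 2 weeks (adjusted p = 0.0166, limma) and 1.91-fold at 4 weeks (adjusted p = 0.0103). Actn4, a non-muscle alpha-actinin, rose 1.25-fold and 1.24-fold. Pls3, an actin-bundling plastin, rose 1.62-fold at 4 weeks, and at 2 weeks stood 1.28-fold above control without passing. Iqgap2, a scaffold abundant in liver, differed by -0.10 and -0.08 and passed at neither time.

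Of 21 myosin and tropomyosin genes 4 rose at each time and 0 fell, with medians of 0.18 and 0.21. All genes had medians of -0.002 and 0.008, and 3.46% and 5.15% of them passed as higher. Myo6, the motor that walks to the pointed end, rose 1.44-fold at 2 weeks (SE 0.06 on the log2 scale, adjusted p = 0.0147, limma) and 1.48-fold at 4 weeks. Caldesmon (Cald1) rose 1.49-fold and 1.39-fold. Myh9, the heavy chain of non-muscle myosin IIA, rose 1.78-fold at 2 weeks. It stood 1.60-fold above control at 4 weeks without passing (adjusted p = 0.0581, limma). At 4 weeks the tropomyosin gene Tpm4 rose 1.53-fold, and at 2 weeks it stood 1.17-fold above control without passing. Myo5b, a motor of canalicular transport, rose 1.31-fold at 2 weeks and by 0.48 on the log2 scale at 4 weeks. Myl12b, a myosin light chain, differed by 0.19 and 0.15 and passed at neither time.

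**Figure D4:**
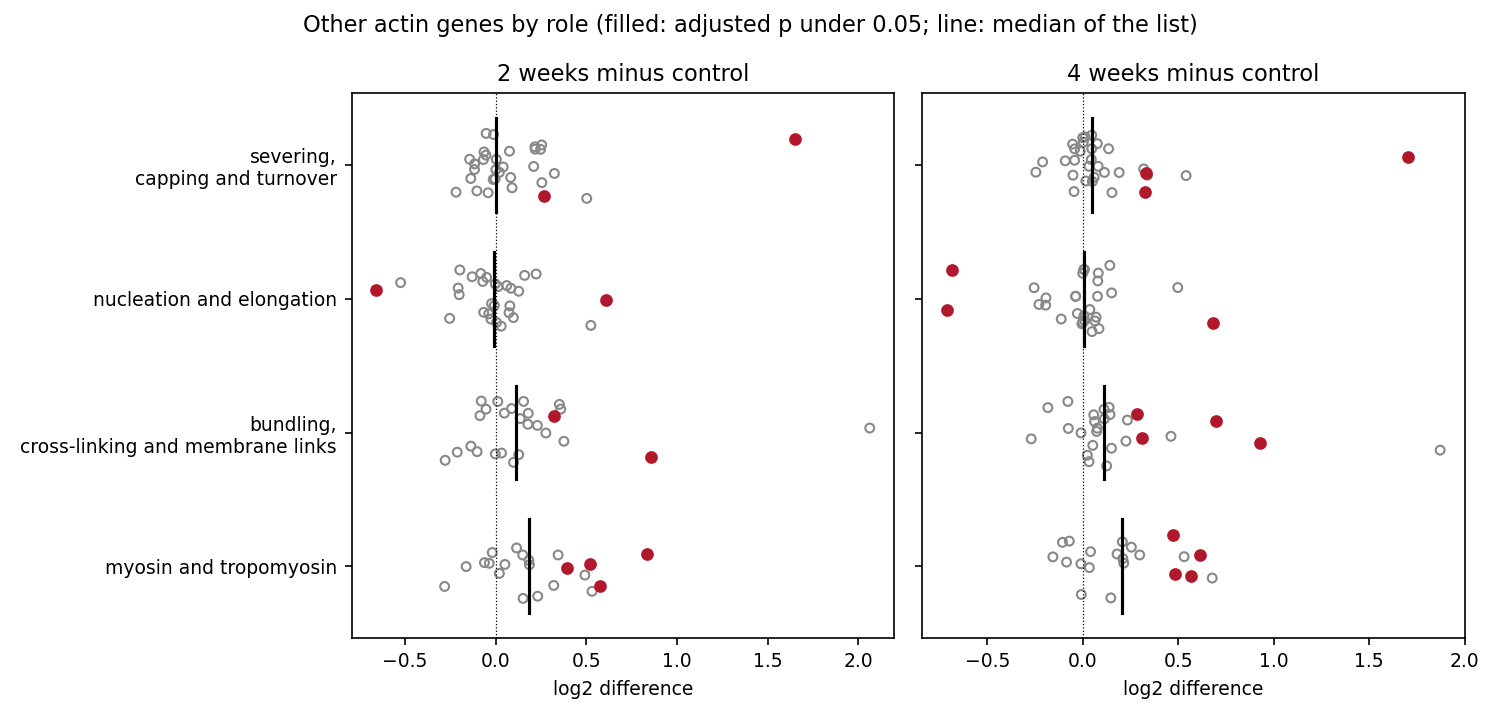
Log2 difference from control (horizontal axis) of the other actin genes of 4 roles (rows) at 2 weeks (left) and 4 weeks (right); each point is a gene, filled where its adjusted p was under 0.05, and the vertical line is the list's median. The filled point farthest to the right is Eps8l2 (1.65 and 1.71), and the filled points left of 0 are Arpc4 at 2 weeks and Arpc4 and Arpc5l at 4 weeks.

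Markers of other liver cells were read on the same arrays, since several actin genes are strong in non-hepatocytes; in whole liver, fewer cells of a type and less RNA per cell cannot be told apart. The mean log2 signal of 9 of 9 stellate cell and fibroblast markers was 8.30 to 8.36 in controls, 8.50 to 8.62 at 2 weeks and 8.41 to 8.49 at 4 weeks. These 9 markers were uneven at 2 weeks, from a difference of 0.02 for Lrat to 0.54 for Col3a1, and 0 passed at either time. Smooth muscle markers (5 of 5) averaged 6.60 to 6.74, 6.80 to 6.96 and 6.67 to 6.76 in the same order. Kupffer cell and macrophage markers (8 of 8) averaged 8.29 to 8.55, 8.31 to 8.66 and 8.25 to 8.63, and other leukocyte markers (6 of 6) 5.88 to 5.92, 5.90 to 6.05 and 5.90 to 5.95. Endothelial markers (7 of 7) averaged 9.07 to 9.15, 8.94 to 9.31 and 9.18 to 9.32, bile duct markers (5 of 8) 6.52 to 6.63, 6.60 to 6.76 and 6.66 to 6.74, and mesothelial markers (4 of 4) 5.98 to 6.04, 5.89 to 5.95 and 5.96 to 6.12. Hepatocyte markers (7 of 8) averaged 13.92 to 13.96 in controls, 13.80 to 13.83 at 2 weeks and 13.81 to 13.85 at 4 weeks, with Tat, a fasting-induced enzyme, at -0.64 and -0.60. The other 6 hepatocyte markers differed by -0.11 to 0.03, and without Tat the mean was 13.90 to 13.93 in controls, 13.85 to 13.89 at 2 weeks and 13.89 at 4 weeks. At 2 weeks 0 markers of any of the 8 lists passed (limma), and at 4 weeks Sox9 of the bile duct and Clec4g of the sinusoidal endothelium passed, both higher. Among all genes 5.93% passed at 2 weeks and 9.77% at 4 weeks, 5.15% as higher. Nothing about a cell type is read from the calls of Sox9 and Clec4g. No marker is at 0 on these log scales. The stellate level was higher, and the hepatocyte level lower mainly through Tat, on all 4 arrays after Cre than in any control. Smooth muscle was above all controls on both 2 week arrays, and the endothelial and bile duct levels on both 4 week arrays. The mesothelial level was below all controls on both 2 week arrays. At 4 weeks Clec4g differed from control by 0.60 and the other endothelial markers by -0.14 to 0.24. Sox9 differed by 0.43 and the other bile duct markers by -0.003 to 0.11. At 2 weeks the smooth muscle marker Acta2 differed by 0.69 and the other smooth muscle markers by 0.02 to 0.15. The endothelial, bile duct and smooth muscle levels thus lean on 1 marker each, and were not computed without it. Their part in the values of the members was not tested.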

How the data were processed

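The deposited values are log2 signals on Affymetrix whole-transcript arrays, 1 per probe set; the scale was read from the values, and the submitters' processing notes name GCOS 1.4. How signals were summarised, background-corrected and normalized was not given in the sources used here. Of 21093 probe sets, 17709 had 1 gene symbol, and each of the 16819 genes was represented by its probe set with the highest mean; 17648 matched RefSeq genes by gene number.

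The log2 values were fitted as deposited by the authors with limma 3.58.1 (R 4.3.3; lmFit and eBayes), 3 groups in 1 fit, 4 residual and 1.69 prior degrees of freedom. Tests were two-sided, adjusted by Benjamini-Hochberg over all genes, with a threshold of 0.05. The steps were tested on simulated data.

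The members and lists were chosen with earlier results of these data known. Named were all members, in each list up to 3 genes passing at each time with the smallest adjusted p and the brightest gene passing at neither, and the 5 genes most correlated with Gsn. The total over the listed actin genes includes 1 list that is not reported here by itself. Dicer1 checked the labels. Alternatives were 14: quantile normalization, median subtraction, no dim genes, probe set means, variance trend, 2 groups only, replicate block, and leaving out each of the 7 arrays. The number of arrays limits the precision.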

Additional observations from a re-analysis of the deposited data

How the results depend on the processing

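With the replicate number as a block (replicate block), 0 genes were called at 2 weeks, 2 at 4 weeks and 0 between the times, with 0 members at 2 weeks and 0 listed actin genes called at either time; the adjusted p of Pfn1 at 2 weeks was then 0.198 (limma). The labels give same-numbered arrays a common number and name nothing else that they share. The correlations of their deviations from group means ran from -0.065 to 0.111. In a group of 2 arrays the deviations are exact opposites, so these correlations cannot decide whether the arrays are paired. The block also leaves few degrees of freedom. In fits of 2 groups only, 276 genes, 0 members and 2 listed actin genes were called at 2 weeks, and 0 genes between the times. Leaving out 1 array gave 41 to 2168 genes at 2 weeks (997 with all arrays), 63 to 1948 at 4 weeks (1643) and 0 between the times (1). It gave 0 to 2 members at 2 weeks, 1 to 21 listed actin genes at 2 weeks and 0 to 15 at 4 weeks. The fit that gave 2 members left out replicate 1 at 2 weeks, and so rested on 1 liver at that time. Gsn at 4 weeks stayed between 2.63 and 3.12 when 1 array was left out. Both scalings kept the sign of all 9 members in each comparison, and without genes under the 25th percentile Vil1, Scin and Pfn2 have no value.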

Other observations

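Plastin 1 (Pls1), an actin bundler of microvilli, was singled out after its values were seen. It had the largest log2 differences of the 126 listed actin genes at both times without passing: 2.06 at 2 weeks (SE 0.57, adjusted p = 0.1, limma) and 1.87 at 4 weeks (SE 0.57, adjusted p = 0.108). It read 7.12, 7.52 and 7.54 in controls, 8.81 and 10.10 at 2 weeks, then 8.46 and 10.07 at 4 weeks, so all 4 arrays after Cre lay above the controls and replicate 2 was the higher at each time. Leaving out 1 array gave 1.42 to 2.71 at 2 weeks and 1.07 to 2.67 at 4 weeks. Its order of the 2 week livers was that of Gsn, but in the liver with control-level Gsn it was already above every control.

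Mrtfb, a coactivator of serum response factor, and Diaph1, a formin, also lay above the controls on all 4 later arrays without passing, at 0.85 and 0.52 at 2 weeks (adjusted p = 0.06 and 0.0596, limma). They were chosen after their values were seen.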
